A study of Mus musculus with 8 samples.

Results

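The genes described here are 36 aminoacyl-tRNA synthetases of the mouse, 20 that act in the cytosol and 16 that act in the mitochondrion. They were taken by symbol from a list, and the mitochondrial ones were those whose name ends in 2. All 36 were found in each of the 8 count tables, among 54446 listed genes in the tables of colon cells and 55341 in those of cultured cells, and all 36 passed the filter on low counts in each of the 3 model fits. The list holds most but not every enzyme of the family. RNA was measured by sequencing in CD4+ T cells that lacked or carried the nuclear receptor gene Rora. Knockout (KO) cells were Cd4_cre Rora_fl/fl, in which a Cre recombinase under the Cd4 gene removes a floxed part of Rora, and control (WT) cells were Rora_fl/fl without Cre. In the colitis arm, naive CD4+ cells of either genotype were put into Tcrbd-/- recipients, which have no T cells of their own, and after 6 weeks CD4+ cells were recovered from colon tissue to make 2 KO and 2 control libraries. In the culture arm, naive CD4+ cells were activated by plate-bound anti-CD3 and anti-CD28 for 4 days to make Th17 cells, in the presence of IL-6 plus IL-1β plus IL-23 (the IL-23 mix) or of TGF-β plus IL-6 (the TGF-β mix), and 1 KO and 1 control library were made per mix. Cells of both arms received a further stimulus of PMA plus ionomycin, 2 hours long, ahead of RNA extraction, so no group was unstimulated.

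Each synthetase joins 1 kind of amino acid to its tRNA, and the charged tRNA carries it to the ribosome. Cytosolic and mitochondrial ribosomes use separate sets of enzymes encoded in the nucleus, except that Gars and Kars, for glycine and lysine, each supply both compartments from 1 gene. In the cytosol Dars, Eprs, Iars, Kars, Lars, Mars, Qars and Rars join in a multisynthetase complex held together by the scaffold proteins Aimp1, Aimp2 and Eef1e1, and the others act outside it. Uncharged tRNA is sensed by the kinase GCN2, which leads to the translation of the transcription factor ATF4, and ATF4 raises the transcription of many cytosolic synthetase genes. Activated T cells raise protein synthesis as they grow, and the kinase complex mTORC1, named in the title of the study, is a known regulator of ATF4 in growing cells.

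The libraries held 13176752 to 15922696 counts. The deleted gene, Rora, had 134 and 149 CPM (counts relative to library size, TMM-scaled within colon or within culture) in KO colon cells, against 252 and 291 CPM in control colon cells. In culture it had 59.1 CPM in KO and 152 CPM in control cells of the IL-23 mix, and 190 CPM in KO and 499 CPM in control cells of the TGF-β mix. RNA outside a deleted stretch would still be counted. T cell genes were present throughout, with Cd3e at 150.1 to 324.2 CPM and Cd4 at 455.3 to 1032 CPM over the 8 libraries, and the Th17 cytokine gene Il17a was at 565.8 to 2227 CPM. The colon libraries also held RNA of other cells, and more of it in KO. Summed CPM of 12 epithelial markers was 138 in both KO libraries, against 53.4 and 50.1 in controls, that of 11 B and plasma cell markers 2099 and 2280 in KO, against 601.7 and 589.3 in controls, that of 10 fibroblast markers 165 and 151 in KO, against 51.3 and 44 in controls, and that of 14 macrophage and dendritic cell markers 551.8 and 576.2 in KO, against 379.1 and 369.6 in controls. No marker of these lists was at 0 in KO, whereas Krt20 and Ms4a1 were at 0 in both controls. The summed level of 16 conventional T cell markers was 10890 and 10750 CPM in KO, against 13870 and 13400 CPM in controls, and 12 of the 16 fell while 1 rose (edgeR quasi-likelihood test, Benjamini-Hochberg adjusted p under 0.05). Over all genes tested, 19.9% fell and 19.6% rose. Of the 13 macrophage and dendritic cell markers tested 9 rose, Xcr1 fell (log2 fold change -0.29), and Cd68, Csf1r and Itgam did not pass. In such bulk RNA fewer cells of a type and less RNA per cell cannot be told apart.

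The cytosolic genes were expressed far above the mitochondrial ones. Together the 20 cytosolic genes took 0.276% to 0.417% of all counts of a library and the 16 mitochondrial genes 0.0223% to 0.0461%. Set per kilobase of the longest coding transcript, so that genes can be compared with each other, Nars, for asparagine, had the highest mean level in control colon cells, 118 RPKM, followed by Gars with 114, Kars with 108 and Sars, for serine, with 106. The lowest of the cytosolic genes there was Lars, for leucine. This order depends on the length used: with all annotated exons merged, Gars was the highest, at 89.09 and 85.13 RPKM, above Nars at 74.83 and 74.26, and Eprs the lowest, at 7.154 and 7.168. Of the 13 amino acids with a cytosolic and a mitochondrial gene under the same letter, the cytosolic gene was higher in all 8 libraries for 13, by 1.61-fold to 151-fold. With merged exons as the length this held for 12 of the 13, the exception being Yars and Yars2, for tyrosine.

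**Figure D1:**
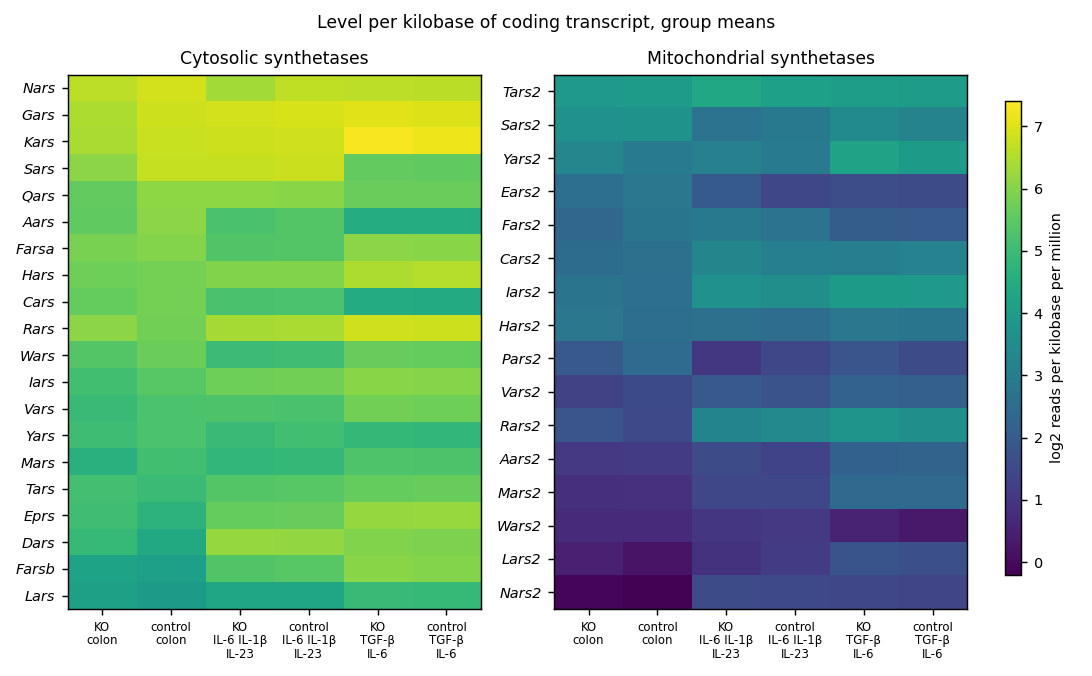
Level of each synthetase per kilobase of its longest coding transcript (log2 RPKM, color), as group means of 2 colon libraries or single culture libraries, in KO and control cells. Rows are sorted by the level in control colon cells, from Nars at 118 RPKM downwards, and the mitochondrial panel is darker than the cytosolic one nearly throughout.

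Promoter sequence was looked at because several of these genes are known ATF4 targets and because the deleted gene encodes a factor that binds DNA. RefSeq start sites on GRCm38.p6 were matched for 27 of the 36 genes, 13 of them cytosolic, with windows of 250 bases before to 50 bases after the start. Cars, Hars, Lars, Nars, Rars, Vars, Wars, Hars2 and Pars2 had no match and were not searched. The end of the window lay in a known transcript of the gene for 24 of 28 windows. It did not for Dars, Kars, Sars and Sars2, so a missing element says less for these. The C/EBP-ATF element TGATGNAA, searched on both strands, occurred in 5 windows, all cytosolic, which is 18.5% of the 27, while 4.51% of 27025 genes with such a window hold it. The E-box CACGTG, the site of MYC and related factors, occurred in Aars, Farsb, Iars, Tars and Ears2, also 18.5%, while 8.09% of all genes hold it. Neither ROR half-site searched, TAGGTCA (2.97% of all genes) nor AAGGTCA (5.38%), occurred in any of the 27, which says only that these letters are not in these windows. The 5 windows with a C/EBP-ATF element are printed from RefSeq, 5′ to 3′ on the strand of the gene, with the letters of that element (either strand) and of the E-box in capitals. The enzymes they encode are those for alanine, glycine, isoleucine, threonine and tyrosine.
Aars chr8:111033592-111033891 (+ strand): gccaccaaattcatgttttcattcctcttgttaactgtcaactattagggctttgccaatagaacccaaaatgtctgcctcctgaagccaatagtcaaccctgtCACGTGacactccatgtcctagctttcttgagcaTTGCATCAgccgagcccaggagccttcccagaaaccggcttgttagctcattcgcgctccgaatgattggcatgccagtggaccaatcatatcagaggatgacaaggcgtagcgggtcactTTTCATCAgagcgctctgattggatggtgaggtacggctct
Gars chr6:55037751-55038050 (+ strand): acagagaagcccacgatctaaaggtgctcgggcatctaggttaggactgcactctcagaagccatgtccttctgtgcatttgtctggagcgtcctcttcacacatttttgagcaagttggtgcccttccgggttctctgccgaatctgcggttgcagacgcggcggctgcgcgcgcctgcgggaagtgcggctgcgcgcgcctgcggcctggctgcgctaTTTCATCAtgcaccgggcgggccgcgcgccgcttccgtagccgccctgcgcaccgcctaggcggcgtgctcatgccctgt
Iars chr13:49681880-49682179 (+ strand): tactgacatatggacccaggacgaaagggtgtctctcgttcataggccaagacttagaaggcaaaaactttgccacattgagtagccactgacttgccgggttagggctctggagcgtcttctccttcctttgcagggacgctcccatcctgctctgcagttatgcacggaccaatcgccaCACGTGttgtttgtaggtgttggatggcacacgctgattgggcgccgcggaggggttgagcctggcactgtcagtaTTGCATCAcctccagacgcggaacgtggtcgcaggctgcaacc
Tars chr15:11399609-11399908 (- strand): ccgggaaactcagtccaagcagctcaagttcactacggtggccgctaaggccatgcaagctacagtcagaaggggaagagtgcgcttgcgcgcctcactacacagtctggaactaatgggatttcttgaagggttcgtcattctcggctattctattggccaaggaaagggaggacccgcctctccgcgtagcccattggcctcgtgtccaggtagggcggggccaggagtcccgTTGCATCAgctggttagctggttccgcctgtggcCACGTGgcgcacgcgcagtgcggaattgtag
Yars chr4:129189653-129189952 (+ strand): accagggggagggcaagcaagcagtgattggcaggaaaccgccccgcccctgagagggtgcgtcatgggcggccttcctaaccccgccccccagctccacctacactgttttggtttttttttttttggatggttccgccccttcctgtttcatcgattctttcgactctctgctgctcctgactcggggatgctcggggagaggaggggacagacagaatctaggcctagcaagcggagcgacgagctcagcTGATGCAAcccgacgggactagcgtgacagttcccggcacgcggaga
Aars held 2 copies of the element, at bases -112 to -105 and 10 to 17 counted from the start site, and an E-box at -146 to -141. The single copies lay at -30 to -23 in Gars, 8 to 15 in Iars, -15 to -8 in Tars and 4 to 11 in Yars, the last on the gene's own strand and the others on the opposite one. Iars and Tars also held an E-box, at -69 to -64 and at 20 to 25. A match of letters is a description and was not tested as a binding site.

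The first comparison asks how the synthetase genes differed between KO and control T cells that had entered the colon. Most of the cytosolic genes that changed were lower in KO, led by the serine enzyme Sars at 0.647 of the control level, and a smaller group with the aspartate enzyme Dars was higher. Of the 20 cytosolic genes 3 rose, 10 fell and 7 did not pass the threshold, and of the 16 mitochondrial genes 0 rose and 2 fell. Over all 13101 genes tested, 39.5% were called, 19.6% higher and 19.9% lower, so the 2 mitochondrial calls are below that background and the 13 cytosolic calls above it. The mitochondrial genes had fewer counts, with SE of 0.093 (Tars2) to 0.239 (Nars2), against 0.077 (Eprs) to 0.099 (Dars) in the cytosolic set. A change of a given size thus passed less readily in the mitochondrial set, and the part of depth in the 2 shares was not tested. The median log2 fold change was -0.22 for the cytosolic and -0.04 for the mitochondrial genes, beside 0.01 over all genes tested. Summed over its genes, the cytosolic set had 2631 and 2574 CPM in KO, against 3173 and 3005 CPM in controls, while the mitochondrial set had 237.9 and 240.8 CPM in KO, against 243.3 and 238.6 CPM in controls. The labels do not say that replicates came from separate mice, so the p-values speak only of variation from library to library, which could be technical.

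Among the enzymes outside the multisynthetase complex, 6 of 12 fell and 0 rose. Sars had 226 and 214.5 CPM in KO, against 351.9 and 329.1 CPM in controls. The 2 KO libraries lay well below both controls, and the log2 fold change of -0.63 ± 0.08 (SE) had the smallest p of the family (edgeR quasi-likelihood test, adjusted p = 0.000122). Aars, the alanine enzyme whose promoter held 2 C/EBP-ATF elements, had 255.6 and 229.1 CPM in KO, against 374.3 and 328.6 CPM in controls. Its groups did not overlap either, and its log2 fold change was -0.54 ± 0.09 (adjusted p = 0.000793). In Aars 1403 exon bases are shared with Exosc6 on the same strand and Gm24103 on the other. Reads shared with Exosc6 could not be told apart even by strand. Gars, which charges glycine in both compartments, had 183.4 and 200.3 CPM in KO, against 251.5 and 239.5 CPM in controls, a log2 fold change of -0.36 ± 0.08 (adjusted p = 0.00477). Vars, the valine enzyme, which is known to bind the elongation factor complex eEF1, had 118.3 and 106.8 CPM in KO, against 143.6 and 141.6 CPM in controls (log2 fold change -0.34 ± 0.08, adjusted p = 0.00691). Both groups of libraries were again apart in Gars and Vars. Wars, the tryptophan enzyme and a well known target of interferon-γ, had 109.7 and 101.8 CPM in KO, against 129.5 and 135.5 CPM in controls, and fell by 0.33 ± 0.08 on the log2 scale (adjusted p = 0.00819). Nars was the other of the 6, at -0.23 ± 0.08 (adjusted p = 0.0337). It was no longer past the threshold without control replicate 1 (adjusted p = 0.0972), without control replicate 2 (0.0709) or without KO replicate 2 (0.168).

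The enzymes of the multisynthetase complex divided into 3 that rose, 4 that fell and Lars, which did not pass. Dars had 55.31 and 61.58 CPM in KO, against 39.21 and 43.97 CPM in controls, so that both KO libraries were higher than both controls. Its log2 fold change was 0.49 ± 0.10 (adjusted p = 0.00251). Eprs, which charges both glutamate and proline tRNA, had 147.7 and 150.3 CPM in KO, against 117.2 and 117 CPM in controls (log2 fold change 0.35 ± 0.08, adjusted p = 0.00409). Here too the KO libraries were the higher ones, with no overlap. Rars, for arginine, was at 0.32 ± 0.08 (adjusted p = 0.00994), and at 0.24 without control replicate 2, where it did not pass (adjusted p = 0.0993). On the other side stood Qars, the glutamine enzyme, with 125.2 and 117.9 CPM in KO, against 173.9 and 171.6 CPM in controls (log2 fold change -0.51 ± 0.08, adjusted p = 0.000462). Its KO libraries were both clearly below its controls. Mars, which charges methionine to both initiator and elongator tRNA, had 68.95 and 64.94 CPM in KO, against 95.58 and 87.14 CPM in controls. Its groups were apart and its log2 fold change was -0.45 ± 0.09 (adjusted p = 0.00204), with 68 bases of its exons shared with Ddit3 on the other strand. Kars, the lysine enzyme of both compartments, had 169.5 and 175.3 CPM in KO, against 220.7 and 205.1 CPM in controls (log2 fold change -0.30 ± 0.08, adjusted p = 0.00989). Without control replicate 1 Kars did not pass (adjusted p = 0.0627). Iars, for isoleucine, was at -0.32 ± 0.08 (adjusted p = 0.00717). Members of 1 complex thus differed from each other in direction. Over all cytosolic genes the ends of the comparison were Sars, outside the complex, and Dars, within it, and the RNA of Sars over that of Dars, per length, was 2.49 and 2.12 in KO libraries, against 5.47 and 4.56 in controls. Such a ratio within a library does not depend on the scaling, and since the pair was chosen for its difference it is a description only.

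**Figure D2:**
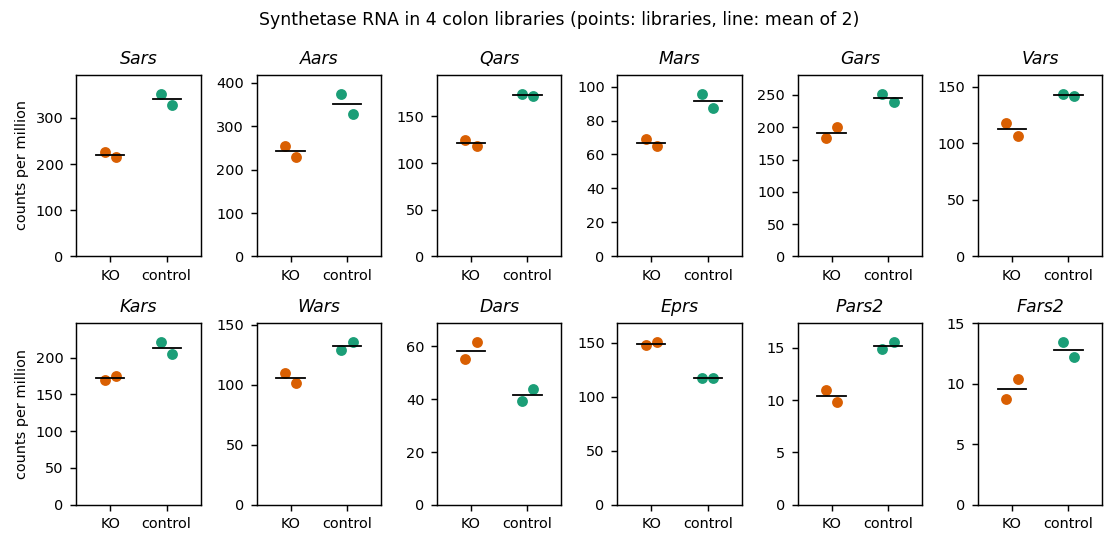
TMM-scaled CPM (axes start at 0) of 12 synthetase genes in the 2 KO and 2 control colon libraries, points for libraries and a line for the mean of 2. The KO points lie below both controls in Sars, Aars, Qars, Mars, Gars, Vars, Kars, Wars, Pars2 and Fars2, and above both in Dars and Eprs.

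Of the mitochondrial enzymes, Pars2, for proline, had 10.98 and 9.832 CPM in KO, against 14.89 and 15.51 CPM in controls (log2 fold change -0.55 ± 0.14, adjusted p = 0.00863). Fars2, the single-chain phenylalanine enzyme of the mitochondrion, had 8.73 and 10.35 CPM in KO, against 13.42 and 12.22 CPM in controls (log2 fold change -0.42 ± 0.15, adjusted p = 0.0451). The KO libraries were the lower ones in both genes, but Fars2 did not pass without control replicate 1 (adjusted p = 0.144), without KO replicate 1 (0.156) or in DESeq2 (0.166), and 616 bases of its exons overlap genes on the other strand. The highest of the 14 that did not pass was Yars2, at 0.42 ± 0.16 (adjusted p = 0.0573). Counting only whether the 2 groups overlapped, 6 cytosolic genes were higher in both KO libraries, 13 were lower in both and 1 overlapped, while of the mitochondrial genes 2 were higher, 5 lower and 9 overlapped. Over all genes tested, 70.5% did not overlap.

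**Figure D3:**
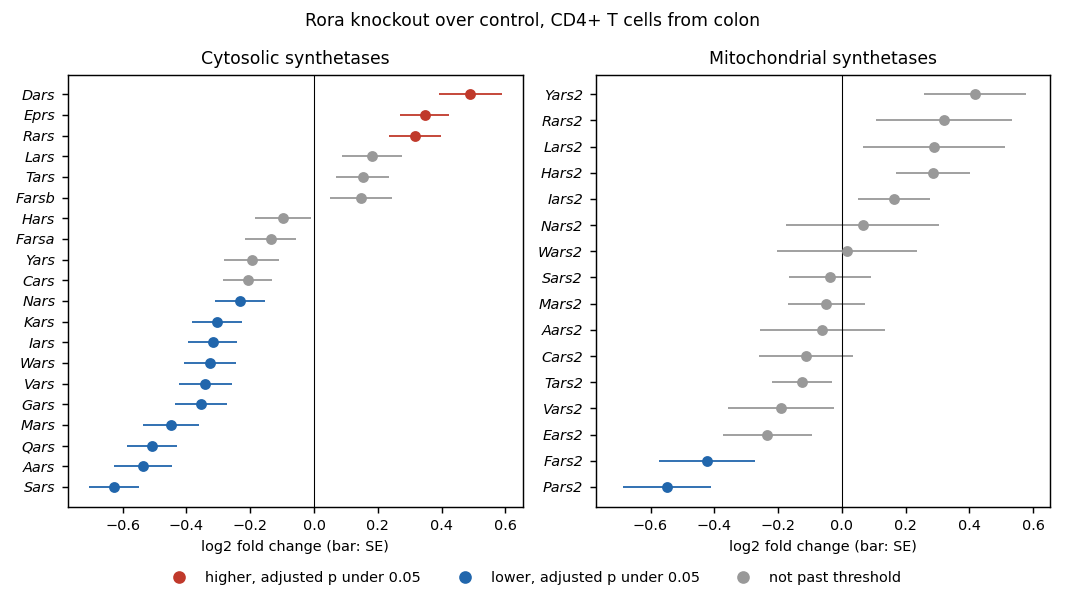
Log2 fold change (KO over control, bar: SE) of the 20 cytosolic and 16 mitochondrial synthetase genes in colon cells, red for higher and blue for lower at an adjusted p under 0.05, 2 libraries a group. The cytosolic genes run between Dars at 0.49 and Sars at -0.63, and most mitochondrial genes are grey with wider bars.

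The calls depend in part on the scaling. With library totals in place of TMM the median of all genes moved up by 0.194 on the log2 scale, and 77.3% of all calls were higher in KO instead of 49.6%. The cytosolic genes then counted 6 higher and 4 lower, with a median of -0.026, and the mitochondrial genes 3 higher and 0 lower, with a median of 0.15. Aars, Mars, Qars and Sars were lower and Dars and Eprs higher in each of the 10 alternatives run, whereas Gars (-0.16), Iars (-0.12), Kars (-0.11), Nars (-0.038), Vars (-0.15), Wars (-0.13), Fars2 (-0.23) and Pars2 (-0.35) kept their sign but did not pass with library totals. The summed cytosolic CPM divided by the summed CPM of the 16 T cell markers was 0.242 and 0.24 in KO libraries, against 0.229 and 0.224 in controls, a ratio that is also free of scaling. The part of other cells' RNA in the genotype differences was not tested.

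Related gene groups in the same libraries were described by counts. The background for these counts is the 39.5% of all genes tested that were called, 19.6% higher and 19.9% lower. Of 12 cytosolic synthetases listed as responsive to ATF4, 7 fell and 1 rose. Their share of calls, 66.7%, was near the 65% of all 20 cytosolic synthetases, of which 10 fell and 3 rose. Of 23 other ATF4 response genes tested 13 fell and 2 rose, with a median of -0.31. Asns, which makes asparagine, averaged 58.85 CPM in KO and 112.3 CPM in controls (log2 fold change -0.93, adjusted p = 1.29e-05), and Slc7a5, the large neutral amino acid transporter, averaged 297.6 CPM in KO and 454.3 CPM in controls (-0.61, adjusted p = 0.000151). Atf5, a transcription factor of the same response, and Ddit4, an inhibitor of mTORC1, fell by 0.86 and 0.87 on the log2 scale. Of 5 cytosolic elongation factor genes, which bring the charged tRNA to the ribosome and move it on, 5 fell, with a median of -0.69, and Eef2 averaged 5121 CPM in KO and 8719 CPM in controls (-0.77, adjusted p = 3.7e-05). Among the 3 scaffold genes of the complex, Aimp2 fell (-0.29, adjusted p = 0.0405), while Eef1e1 (-0.18) and Aimp1 (-0.02) did not pass. Of 13 accessory genes of tRNA charging only Trnt1, which adds the CCA end to tRNA, passed (0.49, adjusted p = 0.00303). Mitochondrial translation factors gave 3 higher and 1 lower of 10, a share of 40% that is near the background. Among them Mtif2, an initiation factor, was at 0.71 and the elongation factor Tufm at -0.44. Of 10 amino acid sensing genes 2 rose and 3 fell (50% called, not far from the background), led by Sesn1, of the sestrin family of amino acid sensors, at 1.08. Of 12 genes of ribosome biogenesis and MYC 5 rose and 3 fell, and Myc itself averaged 736.5 CPM in KO and 1192 CPM in controls (-0.70, adjusted p = 4.37e-05). Of 11 interferon-γ response genes 7 rose and 1 fell, while Wars fell, and Gbp4 averaged 168.3 CPM in KO and 75.08 CPM in controls (1.16, adjusted p = 4.39e-06).

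In culture the same deletion was examined in both cytokine mixes, with the mixes serving as the repeats. None of the 36 synthetase genes was called in edgeR, in either direction, and DESeq2 called 0 as well. An unadjusted p under 0.05 in edgeR was found for 0 of them, beside 500 of all 13983 genes tested, itself a small share. The background was low, since 4 of 13983 genes were called, 0.0286%, of which 0.0143% higher and 0.0143% lower. The median log2 fold change was -0.01 for the cytosolic and 0.05 for the mitochondrial genes. The smallest p belonged to Yars2, with 26.4 CPM in KO and 23.4 CPM in control cells of the IL-23 mix and 55.06 CPM in KO and 47.53 CPM in control cells of the TGF-β mix (log2 fold change 0.20 ± 0.09, adjusted p = 0.9997). Of the cytosolic genes Nars had the smallest p, at -0.14 ± 0.09, followed by Vars at 0.07, Aars at -0.07 and Yars at -0.07, and of the mitochondrial genes Ears2, for glutamate, at 0.31, Tars2, for threonine, at 0.15 and Vars2 at 0.10 came after Yars2. These differences were within the spread that this fit, with 1 residual degree of freedom, estimates between libraries. Sars, which led the genes lower in KO colon cells, had 414.4 CPM in KO and 427.8 CPM in control cells of the IL-23 mix, and 187.4 CPM in KO and 184 CPM in control cells of the TGF-β mix.

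Within each mix there was 1 library per genotype, so only values with counting error can be given. No synthetase differed by 1.5-fold or more, a size passed by 6.66% of genes in the IL-23 mix and by 7.67% in the TGF-β mix. In the IL-23 mix the lowest cytosolic ratio was that of Nars, 244.8 CPM in KO and 301.6 CPM in control cells, a ratio of 0.812 (95% Poisson interval 0.777 to 0.848). Aars was at 0.912, Yars at 0.896, Gars at 0.95 and Tars at 0.946, each with its interval below 1, and the ratio was above 1 in 3 of the 20 cytosolic genes. Ears2 was the highest there, with 8.605 CPM in KO and 5.999 CPM in control cells, a ratio of 1.43 (1.09 to 1.90). Pars2 was the lowest of all 36, with 6.78 CPM in KO and 8.834 CPM in control cells, a ratio of 0.768 (0.588 to 0.999). These 2 genes had few counts and wide intervals. In the TGF-β mix Nars had 296.6 CPM in KO and 293.8 CPM in control cells, and 16 of the 20 cytosolic ratios were above 1. Kars was the highest of them, with 387.8 CPM in KO and 354.2 CPM in control cells. The intervals cover counting error and not the spread between cultures.

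The cytokine mixes differed far more than the genotypes. In the IL-23 mix, set against the TGF-β mix, the cytosolic genes Sars, Aars, Cars, Qars and Dars rose, 12 others fell, and Gars, Nars and Yars did not pass. Of the mitochondrial genes 2 rose, 8 fell and 6 did not pass. Over all genes 69.8% were called, 35.8% higher and 34% lower, so the share of calls in the cytosolic set (85%) was above and that in the mitochondrial set (62.5%) below the background. Here too the SE reached higher in the mitochondrial set, 0.073 (Iars2) to 0.18 (Pars2), against 0.065 (Eprs) to 0.085 (Nars), and the part of depth was not tested. The median log2 fold change was -0.35 for the cytosolic and -0.34 for the mitochondrial genes, beside 0.02 over all genes. Summed CPM of the cytosolic genes was 3727 in KO and 3885 in control cells of the IL-23 mix, against 4165 in KO and 4081 in control cells of the TGF-β mix. That of the mitochondrial genes was 372.2 and 347.2 in the IL-23 mix, against 460.5 and 441.9 in the TGF-β mix, KO before control in each.

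Sars was the gene with the largest rise, with 414.4 and 427.8 CPM in KO and control cells of the IL-23 mix, against 187.4 and 184 CPM in KO and control cells of the TGF-β mix. Both libraries of the IL-23 mix lay above both of the TGF-β mix, by 2.27-fold on average (log2 fold change 1.18 ± 0.07, edgeR quasi-likelihood test, adjusted p = 1.5e-06). Aars had 234.2 and 256.9 CPM in the IL-23 mix, against 143.7 and 143.7 CPM in the TGF-β mix (log2 fold change 0.77 ± 0.07, adjusted p = 2.07e-05). Cars, the cysteine enzyme, had 131.4 and 132.4 CPM in the IL-23 mix, against 78.6 and 77.12 CPM in the TGF-β mix (0.76 ± 0.07, adjusted p = 2.16e-05). Qars followed at 0.42 and Dars at 0.25. In each of these genes both genotypes of the IL-23 mix lay above both of the TGF-β mix.

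The 2 subunits of the cytosolic phenylalanine enzyme fell together. Farsa, its α subunit, had 80.77 and 81.82 CPM in the IL-23 mix, against 134.6 and 131.2 CPM in the TGF-β mix (log2 fold change -0.71 ± 0.07, adjusted p = 3.36e-05). Farsb, its β subunit, had 88.99 and 95.2 CPM in the IL-23 mix, against 147 and 142.5 CPM in the TGF-β mix (-0.65 ± 0.07, adjusted p = 7.07e-05). The mitochondrial enzyme for the same amino acid, Fars2, went the other way, with 17.02 and 14.9 CPM in the IL-23 mix, against 9.479 and 9.252 CPM in the TGF-β mix (0.77 ± 0.13, adjusted p = 0.000709). Wars had 99.22 and 103.5 CPM in the IL-23 mix, against 152.7 and 150.4 CPM in the TGF-β mix (-0.58 ± 0.07, adjusted p = 0.000109). It thus fell in the mix in which 9 of 11 interferon-γ response genes rose. Kars had 269.4 and 277.9 CPM in the IL-23 mix, against 387.8 and 354.2 CPM in the TGF-β mix (-0.44 ± 0.07, adjusted p = 0.000702), whereas Gars, with 305 and 320.9 CPM in the IL-23 mix, against 341.8 and 332.4 CPM in the TGF-β mix, did not pass (-0.11 ± 0.07, adjusted p = 0.188). The other cytosolic genes that fell, Lars, Eprs, Hars, Vars, Mars, Rars, Iars and Tars, lay between -0.62 and -0.23. All 8 enzymes of the multisynthetase complex passed, 2 higher and 6 lower.

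Yars2, the mitochondrial tyrosine enzyme, had 26.4 and 23.4 CPM in the IL-23 mix, against 55.06 and 47.53 CPM in the TGF-β mix (log2 fold change -1.04 ± 0.09, adjusted p = 1.29e-05). Mars2, for methionine, had 32.79 and 32.96 CPM in the IL-23 mix, against 65.04 and 65.46 CPM in the TGF-β mix (-0.99 ± 0.08, adjusted p = 1.17e-05). Mars2 was thus at 50.4% of its level in the TGF-β mix and Yars2 at 48.55%, with no overlap of libraries. Aars2, for alanine, had 10.69 and 9.23 CPM in the IL-23 mix, against 16.45 and 17.17 CPM in the TGF-β mix (-0.76 ± 0.13, adjusted p = 0.000877), while its cytosolic partner Aars rose. Wars2 rose, at 0.60 ± 0.16 (adjusted p = 0.00836), but not in DESeq2 (adjusted p = 0.146). Lars2, Sars2, Rars2, Iars2 and Vars2 lay between -0.69 and -0.34, and of these Sars2, Rars2 and Vars2 did not pass in DESeq2. The 17 cytosolic calls were made in each of the 5 alternatives run. A fibroblast marker list moved with the mix, at 418 and 454 CPM in the IL-23 mix, against 2.57 and 2.72 CPM in the TGF-β mix. Nearly all of it was Lum, at 387.1 and 422.4 CPM, followed by Dcn, at 22.3 and 22.48 CPM. The 4 genes of this list that were tested all rose, Lum (8.12), Dcn (7.77), Fn1 (3.16) and Col1a1 (1.80). Col3a1, Sparc and Mgp were at or near 0 in all 4 cultures. The macrophage and dendritic cell list moved too, at 313.2 and 339.1 CPM in the IL-23 mix, against 40.18 and 50.95 CPM in the TGF-β mix. It was mostly H2-Ab1, at 179.5 and 195.3 CPM, and Cd74, at 102.9 and 110.4 CPM. Of its 6 genes tested 4 rose, H2-Ab1 (3.22), Cd74 (2.33), Cd68 (3.73) and Flt3 (5.77), while H2-Aa fell (-2.68) and Xcr1 did not pass. C1qa, C1qb, C1qc and Lyz2 were at 0 in all 4 cultures. The part of either list in the mix difference was not tested.

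**Figure D4:**
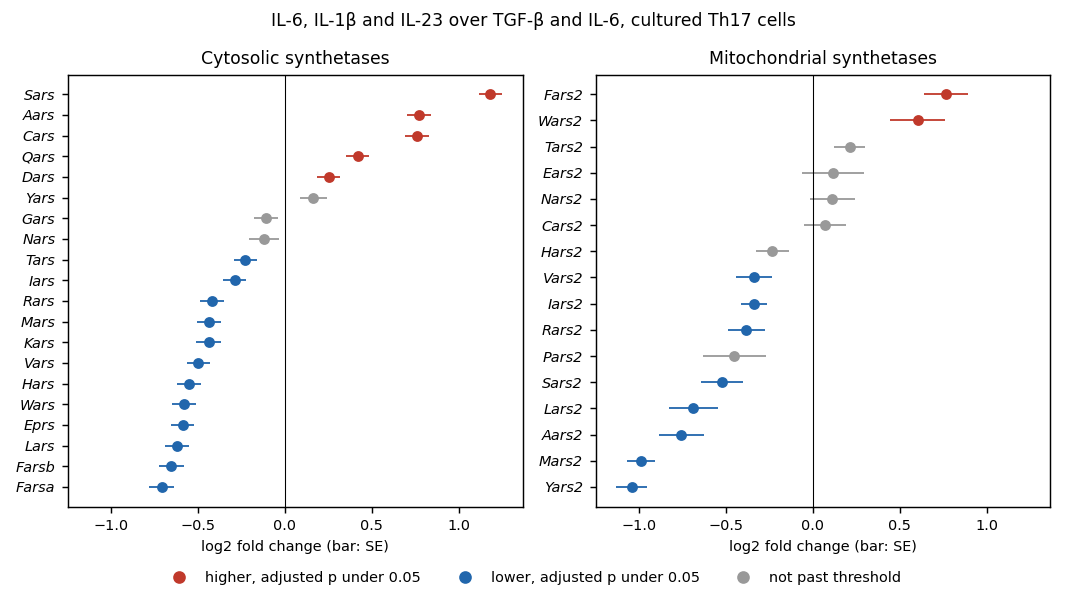
Log2 fold change (IL-6, IL-1β and IL-23 over TGF-β and IL-6, bar: SE) of the synthetase genes in cultured cells, 2 libraries a mix (1 KO and 1 control), red for higher and blue for lower at an adjusted p under 0.05. Sars is at the top at 1.18 and Farsa at the bottom at -0.71 among cytosolic genes, and Fars2 at 0.77 and Yars2 at -1.04 are the ends of the mitochondrial panel.

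Other lists divided between the mixes as well, beside a background of 69.8% of all genes called, 35.8% higher and 34% lower. Of the 12 cytosolic synthetases listed as responsive to ATF4, 3 rose and 6 fell (75% called), with a median of -0.17. Of 24 other ATF4 response genes 13 rose and 6 fell, with a median of 0.28, opposite in sign to that of these synthetases. They included Asns at 0.66, Atf5 at 1.38 and Ddit4 at 2.59, whereas Slc7a5 fell (-0.48). Genes of ribosome biogenesis and MYC fell in 11 of 12, with a median of -1.0. Of the accessory genes of tRNA charging 1 rose and 7 fell of 14 (57.1% called in either direction, below the 69.8% of all genes), with Trnt1 at -0.77. The scaffold genes gave 1 higher (Aimp1, 0.71) and 1 lower (Eef1e1, -0.76) of 3. Elongation factors rose in 3 of 5 and fell in 0, led by Eef1a1 at 0.83 and Eef2 at 0.82. Their share of calls, 60%, was below the 69.8% of all genes called in either direction and above the 35.8% called higher.

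The colon genotype comparison and the culture mix comparison share no library, and their values for the synthetases can be set side by side. Sars, Aars and Qars, the 3 cytosolic genes with the smallest p among those lower in KO colon cells, were higher in the IL-23 mix, Eprs and Rars were higher in KO colon cells and lower in the IL-23 mix, and Dars was higher in both. Iars, Kars, Mars, Vars and Wars were lower in both. Across the 20 cytosolic genes the log2 fold changes of the comparisons had a Spearman correlation of -0.45, across the 16 mitochondrial genes -0.412 and across 11984 genes tested in both -0.0999. These are correlations across genes, which are not independent replicates, and are given as a description.

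**Figure D5:**
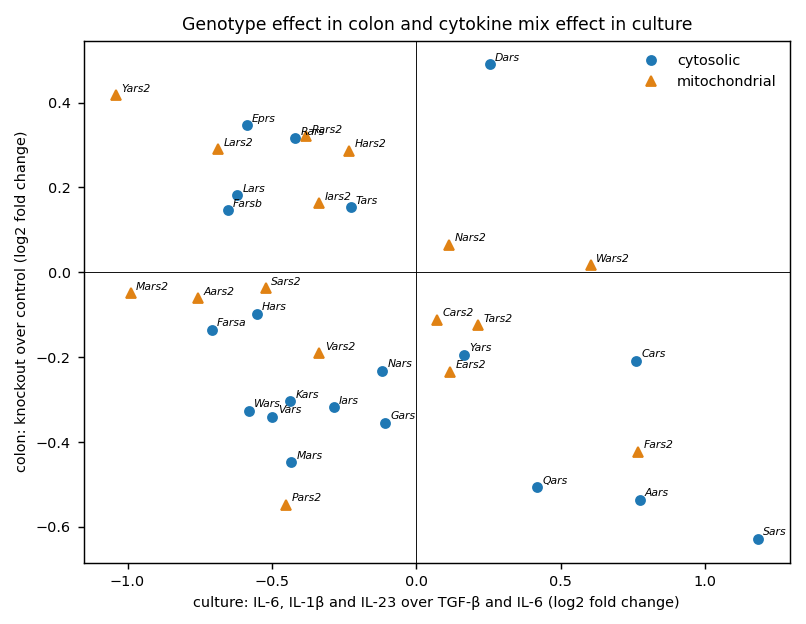
Log2 fold change of KO over control in colon cells (vertical) against that of the IL-23 mix over the TGF-β mix in culture (horizontal), for 20 cytosolic (circles) and 16 mitochondrial (triangles) synthetase genes. Sars lies at the lower right, at -0.63 and 1.18, Yars2 at the upper left, at 0.42 and -1.04, and Dars alone among genes called in both is at the upper right.

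Whether the genotype effect differed between colon cells and cultured cells was tested in 1 fit of all 8 libraries. The difference of the log2 fold changes, colon minus culture, passed for 10 cytosolic genes and 0 mitochondrial genes, while 17.3% of 14886 genes passed (7.71% higher, 9.57% lower). The mitochondrial SE, 0.13 (Tars2) to 0.296 (Wars2), all lay above the cytosolic ones, 0.103 (Eprs) to 0.123 (Aars). It was negative for Sars (-0.62 ± 0.11, adjusted p = 0.00172), Qars (-0.54 ± 0.11, adjusted p = 0.00361), Aars, Mars, Vars, Kars, Gars and Iars, and positive for Dars (0.46 ± 0.12, adjusted p = 0.0193) and Eprs (0.37 ± 0.10, adjusted p = 0.0239). Sars and Qars passed in each of the 8 alternatives run. The other 8 each failed in at least 1, and without control replicate 1 of the colon the difference did not pass for Aars, Dars, Eprs, Gars, Iars, Kars or Mars, with adjusted p between 0.0556 and 0.135. The median difference was -0.19 over the cytosolic and -0.06 over the mitochondrial genes, beside 0.01 over all genes.

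Levels also differed between colon cells and cultured cells, although gene annotation, handling and source cannot be told apart here. On the scale shared by all 8 libraries, 7 cytosolic genes were higher in colon cells, 12 were lower and Qars did not pass, and 3 mitochondrial genes were higher and 10 lower, where 81.5% of all genes were called, 40.9% higher and 40.6% lower. Farsb was at 37.21 and 38.66 CPM in KO and 33.88 and 34.95 CPM in control colon cells, against 81.36 to 134.6 CPM over the 4 cultures (log2 fold change -1.55 ± 0.06, adjusted p = 2.08e-12). Its partner Farsa was slightly higher in colon cells (0.23 ± 0.05), a sign that turned with library totals (-0.045). Per length, Farsa over Farsb was 3.15 and 3.1 in KO and 3.9 and 3.7 in control colon libraries, against 0.958 to 1.03 in culture. With merged exons as the length it was 1.63 and 1.6 in KO and 2.02 and 1.92 in control colon libraries, against 0.496 to 0.532 in culture. A change of length rescales this ratio alike in all libraries, so their order could not differ and the 2 lengths are not separate support. Dars was at 60.97 and 67.91 CPM in KO and 43.32 and 48.75 CPM in control colon cells, against 130.8 to 158.8 CPM in culture (-1.41 ± 0.06, adjusted p = 8.58e-12). Eprs was at -1.02 ± 0.05. Cars (0.86 ± 0.05) and Aars (0.91 ± 0.06) were higher in colon cells, and Aars was at 281.7 and 252.6 CPM in KO and 413.6 and 364.4 CPM in control colon cells, against 131.4 to 235.6 CPM in culture. Of the mitochondrial genes Rars2, for arginine, was at 5.864 and 7.062 CPM in KO and 4.314 and 6.024 CPM in control colon cells, against 17.34 to 25.12 CPM in culture (-1.85 ± 0.12, adjusted p = 8.74e-10). Nars2 was at -1.57 ± 0.13, Iars2 at -1.11 ± 0.07 and Mars2 at -1.06 ± 0.07, while Ears2 was higher (1.06 ± 0.11, adjusted p = 3.74e-07). Library totals moved the median of all genes by -0.275 in this comparison, and of the 7 cytosolic genes higher in colon cells only Aars and Cars then passed.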

How the data were processed

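RNA sequencing covered 8 libraries. The authors deposited raw counts of reads for each gene, per the file headers, without normalization. Per the submitters' processing notes the build was mm10 and Trim Galore, Bowtie2, featureCounts, edgeR and DESeq2 were used, with no roles or versions stated. Whether counting used strand is not given in the sources used here, so reads of genes that overlap cannot be told apart. Genes were tested in R 4.3.3 with edgeR 4.0.16 (TMM scaling, filterByExpr, quasi-likelihood F-test, Benjamini-Hochberg adjustment over all genes tested, threshold 0.05), in 3 fits: colon libraries alone (13101 genes, 2 residual degrees of freedom), cultured libraries with genotype and mix (13983 genes, 1) and all 8 joined by symbol (14886 genes, 3). SE is the log2 fold change over the square root of F. Biological coefficients of variation were 7.48%, 5.75% and 6.91%. Replicate libraries were checked to be distinct (chi-square per gene 5.51 for KO and 7.57 for control colon cells). Alternatives were library totals, DESeq2 size factors, DESeq2 1.42.0, no filter, a replicate block, the fit of all 8 libraries and leaving out each colon library. The steps were tested on simulated data. Levels per kilobase used the longest coding transcript of GENCODE M21, in which Hars, Lars and Nars matched by identifier without its version. Promoters came from RefSeq. Poisson intervals of 95% cover counting error only. Values in every library are given for Gars, Kars, Wars and, by smallest p, up to 8 cytosolic and 4 mitochondrial genes in the colon comparison and up to 4 per compartment in the others, shortened where no gene passed. Members and lists were chosen with earlier results of these data known, and a list's median and counts are a description without a test.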

Additional observations from a re-analysis of the deposited data

Results flagged for a closer look

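The difference between the genotype effect in colon cells and that in cultured cells was tested by an interaction contrast, and it passed for 10 of the 36 synthetase genes, where 17.3% of all genes passed. Without control replicate 1 or without KO replicate 2 of the colon it passed for 3 cytosolic genes, all lower, and Sars and Qars were the ones that passed in each of the 8 alternatives. On the log2 scale, colon minus culture, it was -0.62 for Sars, -0.54 for Qars, -0.47 for Aars, -0.45 for Mars, -0.42 for Vars, -0.35 for Kars, -0.34 for Gars and -0.32 for Iars, and 0.46 for Dars and 0.37 for Eprs. All 10 are cytosolic, the mitochondrial genes having wider SE, and 6 of them belong to the multisynthetase complex. In culture itself the KO over control value of these genes lay near 0, for example -0.01 for Sars, 0.03 for Dars and -0.07 for Aars. The summed level of the T cell markers was 10890 and 10750 CPM in KO, against 13870 and 13400 CPM in control colon cells. In culture it was 8524 CPM in KO and 8564 CPM in control cells of the IL-23 mix, and 7979 CPM in KO and 8328 CPM in control cells of the TGF-β mix. Its part in the differences was not tested.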

How the results depend on the processing

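In colon cells library totals in place of TMM gave 6 cytosolic genes higher and 4 lower (medians -0.026 cytosolic, 0.15 mitochondrial), and 3 mitochondrial genes higher and 0 lower. For colon minus culture they gave 5 cytosolic genes higher and 2 lower, with medians of 0.008 and 0.134. For colon over culture they gave 2 cytosolic genes higher, medians of -0.64 and -0.79, and turned the sign of Farsa (-0.045), Nars (-0.072), Sars (-0.035), Wars (-0.07), Yars (-0.053) and Hars2 (-0.27) to negative, of which only Hars2 was called lower. In the colon comparison mitochondrial genes higher were 1 with no filter and 1 in the fit of all 8 libraries, and DESeq2 called 1 mitochondrial gene lower. In the culture mix comparison the cytosolic median was -0.38 with no filter, and DESeq2 called 1 mitochondrial gene higher and 5 lower. Genes called for genotype in culture were 9 with library totals, 9 with DESeq2 size factors, 0 with no filter (500 genes had an unadjusted p under 0.05 with the filter), 7 in DESeq2 and 15 in the fit of all 8 libraries, none of them a synthetase.

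Leaving out each colon library in turn, cytosolic genes higher were 2 to 3 and lower 8 to 10 in colon, and mitochondrial genes higher 0 to 1 and lower 1 to 2, with medians of -0.27 to -0.21 and -0.10 to 0.03 and 4198 to 5133 genes called in all. For colon minus culture cytosolic genes higher were 0 to 2 and lower 3 to 6, the cytosolic median was -0.231 to -0.172, and 1676 to 2463 genes were called in all. A group with 1 library left is assumed to vary like the others.

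The replicate numbers are not said to pair libraries, and replicate differences correlated at 0.153 between genotypes over genes and at 0.377 over the synthetases. With the replicate block 2 mitochondrial genes were higher in KO colon cells, Hars2 and Yars2, and 12 cytosolic genes were lower, Cars (adjusted p = 0.0133) and Yars (0.0319) being added. Depth was lowest for mitochondrial genes, with 33 counts as the smallest value of any synthetase in a library.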

Other observations

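Hars and Hars2, the cytosolic and mitochondrial histidine enzymes, lie head to head with starts 197 bases apart and overlap in 195 bases of exons, so that reads there cannot be told apart without strand. Per length Hars over Hars2 was 7.78 and 7.16 in KO colon libraries, against 10.1 and 9.42 in control colon libraries. It was 10.2 in KO and 11 in control cells of the IL-23 mix, and 12.5 in KO and 14 in control cells of the TGF-β mix. In each of these settings the ratio was lower in KO libraries. Neither gene was called by genotype in colon or in culture, except that Hars2 was higher in KO colon cells with library totals and with the replicate block. Mars2 over Fars2, both mitochondrial, was 0.363 in KO and 0.416 in control cells of the IL-23 mix, against 1.29 in KO and 1.33 in control cells of the TGF-β mix. Since Mars2 fell (-0.99) and Fars2 rose (0.77) in that comparison, the choice of the pair fixed this split, and it is a description only. In colon the ratio was 0.385 and 0.332 in KO libraries, against 0.276 and 0.273 in control libraries.

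Across 11180 protein-coding genes the log2 fold change of KO over control in colon cells had a Spearman correlation of 0.236 with the merged exon length of a gene. Over the 36 synthetases this correlation was 0.0126. These are descriptions across genes.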
